A study of Mus musculus with 8 samples.

Results

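The 10 genes described here encode the NF-kappaB transcription factor subunits and the proteins that hold NF-kappaB signalling back. They were measured in CD4 T cells of microRNA-21 knockout and wild-type mice, before and after brief stimulation through the T cell receptor. The genes were taken by name, as every array probe annotated to Rel, Rela, Relb, Nfkb1, Nfkb2, Nfkbia, Nfkbib, Nfkbie, Nfkbiz or Tnfaip3. That gave 11 probes, 2 of them for Nfkbie, of the 25697 probes on the array, which carry 17914 gene symbols. All 11 probes passed the filter on dim probes, among 11047 probes of 8104 genes that were tested.

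T cells were sorted by flow cytometry from mesenteric lymph nodes, which drain the gut, of Mir-21-/- mice and of their wild-type littermates. The sort gave CD4+CD25High cells, selected by CD25, a chain of the interleukin-2 receptor that regulatory T cells carry in large amounts, and CD4+CD45High cells, for which the labels do not name the CD45 isoform. From each population of each genotype, RNA was taken either without stimulation or after 30 min with antibodies against CD3 and CD28, which engage the T cell receptor and its main costimulatory receptor. The resulting 8 combinations were each measured on 1 Illumina MouseRef-8 v2.0 expression beadchip array with no repeat, and the labels give neither the strain and age of the mice nor the number of mice behind an array. Each comparison was therefore made over pairs of arrays alike in everything else, so a p-value reflects the spread of a difference over populations, genotypes or stimulation states, and nothing states that arrays come from separate animals or cultures.

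NF-kappaB subunits pair into dimers that inhibitors of the IkappaB family retain in the cytoplasm of a resting cell. Engagement of the T cell receptor activates a kinase complex that marks the inhibitors for destruction, and the freed dimers enter the nucleus. Several of the genes they switch on encode the inhibitors themselves and the A20 protein of Tnfaip3, which closes a negative feedback loop. In T cells the pathway is known for its part in activation, survival and the development of regulatory T cells.

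The deleted microRNA and the promoter windows of the genes that could be read are shown first, because several of these genes are known targets of NF-kappaB themselves. The mature 5p strand of microRNA-21 (chr11:86584120-86584141, minus strand, GRCm38.p6) is given 5′ to 3′ with its seed, bases 2 to 8, in capitals. No array probe was assigned to it, so the deletion itself was not checked on these arrays.
mmu-miR-21a-5p: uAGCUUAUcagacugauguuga
RefSeq promoter windows of GRCm38.p6 matched 7 of the 10 genes, and the 250 bases before each transcription start were searched on both strands for the kappaB consensus, the 10-base motif that NF-kappaB dimers bind. The consensus was present before at least 1 start of 5 of the 7 matched genes (71.4%), compared with 1204 of 27025 genes in the whole table (4.46%). It was found for Nfkbia, Tnfaip3, Rel, Nfkb2 and Nfkbie, and these letters were not in the windows of Nfkbib and Rela. A match is a description of the sequence and not a measured binding site. Windows of 4 of these genes follow 5′ to 3′ on the gene's strand, with the consensus in capitals: Nfkbia at chr12:55492648-55492897 on the minus strand, Tnfaip3 at chr10:19015411-19015660 on the minus strand, Rel at chr11:23770970-23771219 on the minus strand, and Nfkbie at chr17:45555450-45555699 on the plus strand.
Nfkbia: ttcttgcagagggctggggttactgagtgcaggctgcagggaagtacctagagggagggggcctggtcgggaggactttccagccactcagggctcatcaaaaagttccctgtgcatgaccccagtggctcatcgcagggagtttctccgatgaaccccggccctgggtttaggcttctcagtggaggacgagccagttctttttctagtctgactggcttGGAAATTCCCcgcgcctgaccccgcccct
Tnfaip3: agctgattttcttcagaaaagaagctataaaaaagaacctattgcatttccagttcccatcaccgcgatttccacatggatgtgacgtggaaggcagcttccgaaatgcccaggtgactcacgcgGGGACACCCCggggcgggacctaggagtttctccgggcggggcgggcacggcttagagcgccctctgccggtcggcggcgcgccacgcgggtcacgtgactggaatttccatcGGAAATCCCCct
Rel: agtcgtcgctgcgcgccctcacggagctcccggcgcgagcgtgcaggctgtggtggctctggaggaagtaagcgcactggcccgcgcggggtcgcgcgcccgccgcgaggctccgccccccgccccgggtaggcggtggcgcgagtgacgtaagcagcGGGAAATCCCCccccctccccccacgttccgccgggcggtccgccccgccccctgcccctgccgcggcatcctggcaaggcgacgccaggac
Nfkbie: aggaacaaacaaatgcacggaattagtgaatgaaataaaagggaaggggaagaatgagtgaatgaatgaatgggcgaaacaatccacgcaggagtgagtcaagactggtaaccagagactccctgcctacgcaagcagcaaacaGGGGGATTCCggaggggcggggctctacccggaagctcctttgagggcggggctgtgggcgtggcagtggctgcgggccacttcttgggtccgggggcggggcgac
The motif lay 29 bases before the Nfkbia start, 12 and 125 bases before the Tnfaip3 start, and 106 bases before the Nfkbie start. In Rel the matches began 92 and 91 bases before the start and overlapped. Nfkb2 has 3 starts in the table, and 3 of its sites on the plus strand are shown without the full windows, at chr19:46304688-46304717, chr19:46305449-46305478 and chr19:46305695-46305724 in that order.
Nfkb2 site 39 bases before its start: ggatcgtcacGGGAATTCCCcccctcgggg
Nfkb2 site 236 bases before its start: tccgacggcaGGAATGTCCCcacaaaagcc
Nfkb2 site 225 bases before its start: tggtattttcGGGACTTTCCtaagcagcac

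Between 9208 and 10477 probes were detected per array at a detection p under 0.01, and the median probe was read from 38 to 40 beads. The stimulated CD25High array of the knockout stood apart, with the fewest detected probes and a median correlation of 0.888 to its fellows, while the remaining 7 arrays had 0.938 to 0.965. Some of the results that rest on it are given with and without it, and the others with it only. The summed level of 8 regulatory T cell genes was 12575 to 15859 intensity units in the CD25High arrays and 1371 to 2531 in the CD45High arrays, and Il2ra, the gene of CD25, was higher by 3.79 log2 in the CD25High arrays. Of the 7 T cell genes with a probe, 6 or 7 were detected on every array. B cell genes summed to 2563 to 4051 units in the CD25High and 771 to 1048 in the CD45High arrays, and myeloid genes to 430 to 677 and 203 to 434, with the B cell gene Pax5 and the myeloid genes Cd14, Itgam, Adgre1, Itgax and Flt3 detected on no array. Of 6 CD8 T cell and natural killer cell genes with a probe, 2 or 3 were detected per array. Cd8b1, at 8.95 to 10.05 log2, and Klrd1 were detected on all 8 arrays, and Cd8a, Ncr1 and Eomes on none. As these are bulk samples, a cell type's lower signal cannot be told apart between fewer of its cells and less RNA in each. All values below are log2 intensities after background correction and quantile normalization, and levels of different genes are not compared, because probes differ in brightness.

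Most of the pathway's own subunit and inhibitor genes were higher within 30 min of stimulation. Of the 10 genes, 8 were higher after anti-CD3 and anti-CD28 at an adjusted p under 0.05 and none was lower. These were all 5 subunit genes and the inhibitor genes Nfkbib, Nfkbie and Nfkbia, with fold changes of 1.47 to 7.54. By probe this was 8 of 11, when 7.93% of all 11047 probes were called higher and 8.1% lower. Tnfaip3 and Nfkbiz were not called. All 4 stimulated arrays lay above all 4 resting arrays for 7 of the 11 probes, compared with 11.5% of all probes.

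Rel encodes c-Rel, the subunit most closely tied to lymphocyte activation, and it had the largest change of the 10 genes. At rest its level was 5.47 in wild-type CD25High, 5.32 in knockout CD25High, 4.96 in wild-type CD45High and 4.93 in knockout CD45High cells. After stimulation the levels were 8.68, 9.32, 6.75 and 7.59 in the same order. Every stimulated array was above every resting one, and the CD25High arrays rose further than the CD45High arrays in both genotypes. The difference over the 4 pairs was 2.91 log2 ± 0.34 (SE, n = 4 pairs), or 7.54-fold (limma, adjusted p = 0.00764). The CD45High resting levels were near background, with a detection p of 0.00501 in wild type and 0.00627 in the knockout. Over 13 alternative settings of processing or arrays used, the difference ran from 1.52 to 3.29 log2. That of Relb ran from 1.51 to 2.17 log2.

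Relb encodes RelB, the partner of the p52 subunit in the non-canonical branch of the pathway. Its levels in the order wild-type CD25High, knockout CD25High, wild-type CD45High and knockout CD45High were 7.63, 7.52, 6.87 and 6.92 at rest and 9.56, 9.15, 9.11 and 9.26 after stimulation. The resting arrays differed by population and the stimulated arrays stood close together, with no overlap between them. Relb rose by 2.03 log2 ± 0.16 (SE, n = 4 pairs), or 4.10-fold (limma, adjusted p = 0.00472).

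Nfkb2 and Nfkb1 encode the precursors p100 and p105, which are processed to the DNA-binding subunits p52 and p50 and which act as inhibitors while unprocessed. Nfkb2 stood at 5.37, 5.89, 4.83 and 4.89 at rest and at 7.37, 7.61, 6.63 and 6.82 after stimulation, in the order given for Relb. Its 4 pair differences were the most even of the strongly changed genes, between 1.71 and 2.00, and gave 1.86 log2 ± 0.12 (SE, n = 4 pairs), or 3.63-fold (limma, adjusted p = 0.00464). The Nfkb2 probe was not detected in the wild-type CD45High resting array, so its level there is near background. Nfkb1 went from 9.98 to 10.57 at rest to 11.47 to 12.52 after stimulation, without overlap. The change was 1.61 log2 ± 0.15 (SE, n = 4 pairs), or 3.05-fold (limma, adjusted p = 0.00628).

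Rela encodes p65, the main transactivating subunit of the canonical dimer, and had the smallest change among the called genes. Its levels were 10.43, 10.35, 10.34 and 10.12 at rest and 11.04, 10.94, 10.80 and 10.68 after stimulation. The pairs differed by 0.461 to 0.608, and the lowest stimulated array was above the highest resting array. The difference was 0.55 log2 ± 0.11 (SE, n = 4 pairs), or 1.47-fold (limma, adjusted p = 0.0265).

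**Figure D1:**
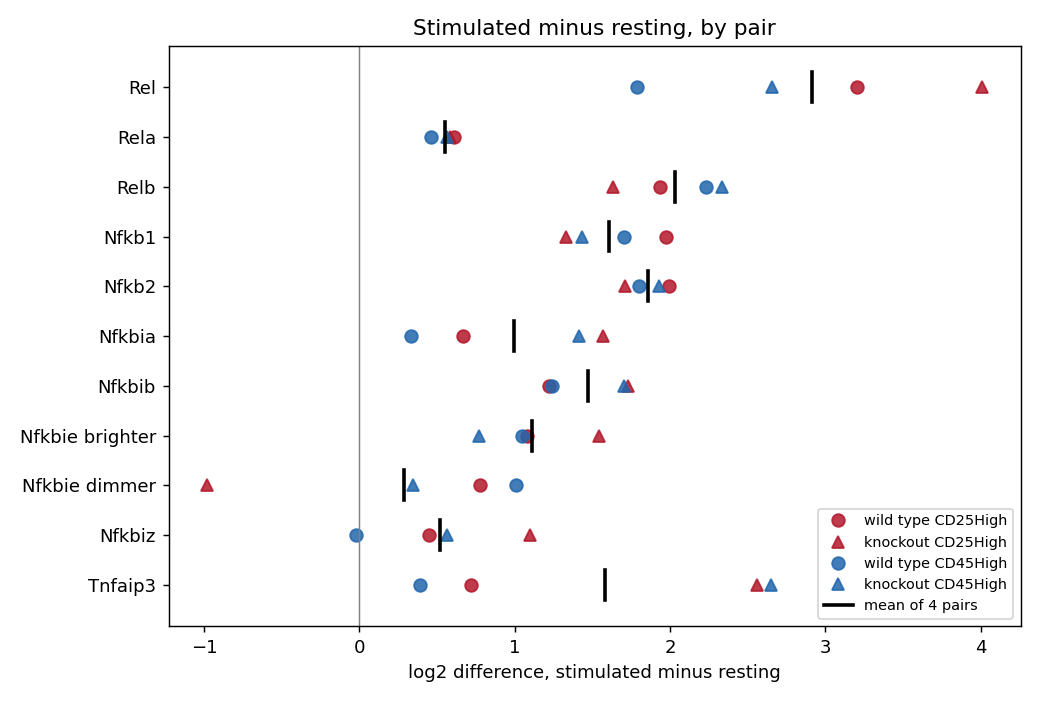
Differences in log2 intensity between stimulated and resting arrays are plotted for each of the 11 probes, with a point for each of the 4 pairs and a bar for their mean. The points of Rel run from 1.79 to 4.01 and those of Rela from 0.461 to 0.608, while the points of Tnfaip3 fall into 0.390 to 0.716 for wild type and 2.56 to 2.65 for the knockout.

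Among the inhibitors, Nfkbib and Nfkbie, which encode IkappaB-beta and IkappaB-epsilon, rose in every pair. Nfkbib moved from 5.58 to 5.80 at rest to 6.95 to 7.49 after stimulation, a difference of 1.47 log2 ± 0.15 (SE, n = 4 pairs), or 2.78-fold (limma, adjusted p = 0.00628). The brighter Nfkbie probe moved from 6.69 to 7.38 at rest to 7.62 to 8.63, a difference of 1.11 log2 ± 0.16 (SE, n = 4 pairs), or 2.16-fold (limma, adjusted p = 0.0114). The groups did not overlap for either probe. The dimmer Nfkbie probe did not follow: its difference was 0.29 log2 ± 0.32 (SE, n = 4 pairs; limma, adjusted p = 0.559). It was detected on 5 of the 8 arrays and not in both CD45High resting arrays or the knockout CD25High stimulated array, where it had its lowest value of 4.20. Without that array it was higher by 0.71 log2 (limma, adjusted p = 0.0200).

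For Nfkbia and Tnfaip3, but not for the subunit genes, both resting knockout arrays lay below both resting wild-type arrays. These were 2 of the 11 probes, compared with 13.9% of all probes. Neither gene was called between the genotypes at rest with all arrays used. Nfkbia encodes IkappaB-alpha, the inhibitor that is resynthesised fastest after NF-kappaB activation. It stood at rest at 11.49 in wild-type CD25High, 10.16 in knockout CD25High, 10.59 in wild-type CD45High and 9.64 in knockout CD45High cells, and after stimulation at 12.16, 11.73, 10.92 and 11.06. Both resting knockout arrays were the lowest of their population, and the resting wild-type CD25High array was above both stimulated CD45High arrays, so the groups overlapped. Nfkbia rose by 0.668 and 0.334 in the wild-type CD25High and CD45High pairs and by 1.57 and 1.41 in the knockout pairs. Over the 4 pairs this was 1.99-fold, or 1.00 log2 ± 0.23 (SE, n = 4 pairs; limma, adjusted p = 0.0346).

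Tnfaip3 encodes A20, a ubiquitin-editing enzyme that shuts off the signal upstream of the kinase complex. Its levels were 9.94, 8.26, 9.33 and 7.81 at rest and 10.66, 10.82, 9.72 and 10.46 after stimulation, in the order wild-type CD25High, knockout CD25High, wild-type CD45High and knockout CD45High. It was higher after stimulation in all 4 pairs, by 0.716 and 0.390 in the wild-type and by 2.56 and 2.65 in the knockout pairs. The mean of 1.58 log2 ± 0.42 (SE, n = 4 pairs) missed the threshold (limma, adjusted p = 0.0503). Nfkbiz encodes IkappaB-zeta, an atypical nuclear family member that acts as a cofactor of p50. It stood at 10.78, 10.22, 10.03 and 9.42 at rest and at 11.23, 11.31, 10.01 and 9.99 after stimulation, and its pair differences ran from -0.0245 to 1.10 (limma, adjusted p = 0.112).

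**Figure D2:**
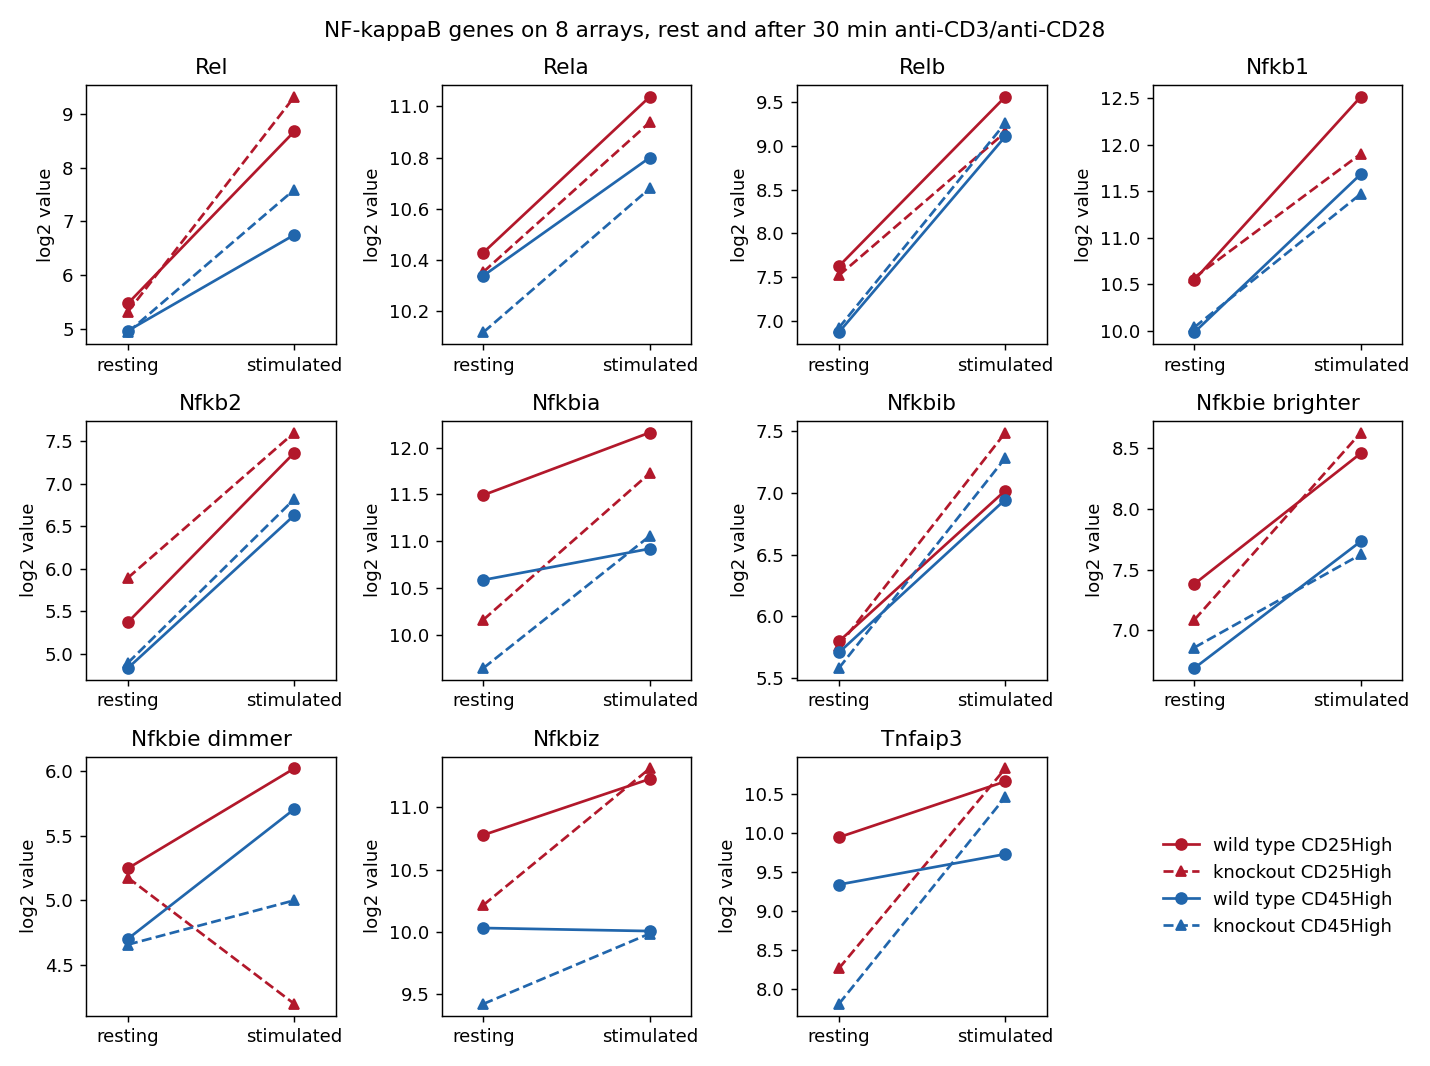
The log2 normalized intensity of each probe is plotted on each of the 8 arrays, with population and genotype marked and resting and stimulated arrays side by side. For Tnfaip3 the resting knockout arrays, at 8.26 and 7.81, lie below the other 6 arrays, which start at 9.33.

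The number of these genes called depended on which pair was present. Without the wild-type CD25High pair no probe of any gene was called, and the lowest adjusted p among the 11 probes was 0.0585. Without the knockout CD45High pair Relb, Nfkb1 and Nfkb2 stayed called, and without the wild-type CD45High or the knockout CD25High pair 8 and 9 of the 11 probes were. The T cell markers summed to 12224 and 15564 units in the stimulated CD25High arrays, against 23803 and 23647 at rest, and to 23854 and 23648 in the stimulated CD45High arrays, against 25940 and 25638 at rest. Of the 3 measured myeloid genes, Lyz2 was called lower over the 4 pairs, at -2.19 log2. S100a8, at 1.46 log2, and Fcer1g, at 0.15 log2, were above 0 and not called. Of the 6 measured B cell genes, 5 were above 0 and 1 was called higher. The part of these markers in the differences was not tested.

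Within the CD25High cells alone, 6 of the 11 probes were called higher, against 7.36% of all probes. They were Rel, Relb, Nfkb1, Nfkb2, Nfkbib and the brighter Nfkbie probe, with Rel at 3.61 log2. In the same cells all 7 measured T cell markers were below 0, with a median of -0.94 log2, and Cd3e (-0.99), Cd4 (-0.94) and Cd3g (-0.90) were called lower. Within the CD45High cells Rel (2.22 log2), Relb (2.29 log2), Nfkb1 (1.57 log2) and Nfkb2 (1.86 log2) were called, 4 of the 11 probes against 0.697% of all probes. Without the knockout CD25High stimulated array 10 of the 11 probes were called in the CD45High cells, against 10.7% of all probes. With no filter on dim probes none was called there, with cyclic loess normalization only Relb was, and with 1 pair left out at a time 0 to 10 were. The dimmer Nfkbie probe was not above background in either CD45High resting array. With all arrays used it was not called there, at 0.675 log2 ± 0.421 (SE; limma, adjusted p = 0.444). Its interval was -0.364 to 1.71, and its differences were 1.01 in the wild-type and 0.343 in the knockout pair. A bound of 1.40-fold, taken from the mean of the stimulated arrays, carries no error and does not establish a rise.

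The response itself was not shown to differ between the populations for any of the genes: 0 of 11 probes were called in the test of the difference, against 0% of all probes higher and 0% lower, and 1 of the 11 had an unadjusted p under 0.05, against 9.48% of all probes. That probe was Rel, whose response was larger in CD25High cells by 1.38 log2 ± 0.42 (SE, n = 4 pairs; limma, adjusted p = 0.472), with a 95% interval of 0.36 to 2.41. The difference was -0.50 for Relb, with an interval of -1.11 to 0.11, and -0.01 for Nfkb2, with an interval of -0.62 to 0.60.

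Other genes of the pathway moved in both directions on stimulation. Among 30 genes that NF-kappaB is known to switch on, 14 of the 28 measured were called higher and 1 lower, against 7.93% and 8.1% of all probes. Their median was 1.40 log2, compared with -0.002 over all probes. The list was chosen with earlier results of these data known, so these values are a description and not an independent test. Irf4, a transcription factor of activated T cells, rose by 3.15, the chemokine gene Ccl4 by 2.43 and the surface protein gene Cd83 by 2.35 log2. Gadd45b rose by 2.30 log2, while the immediate early gene Ier2 fell by 0.88 log2. The 10 subunit and inhibitor genes themselves had a median of 1.53 log2.

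Of 21 other regulators of the pathway, such as further atypical IkappaB proteins and deubiquitinases, 16 were measured, 5 were called higher and 2 lower, and the median was 0.42 log2. Nfkbid, which encodes the nuclear protein IkappaB-NS, rose by 1.55, Tnip2, a partner of A20, by 0.84, the deubiquitinase gene Otud7b by 0.82, Rnf11 by 0.70 and Usp21 by 0.58 log2. Pdlim2, whose product promotes the breakdown of nuclear p65, fell by 1.08 and Nlrc3 by 1.04 log2. Of 23 genes of the cascade from the receptor to the kinase complex, all 23 were measured, 3 were called higher and 2 lower, and the median was 0.13 log2. Over all probes 7.93% were called higher and 8.1% lower. The genes called higher were Map3k14, the kinase of the non-canonical branch (0.87 log2), Birc3 (0.74) and Bcl10 (0.69), and Prkcq, the protein kinase C of the T cell receptor, was called lower (-0.89). With the outlying array left out, Traf6 and Malt1 were also called higher and Casp8 and Traf2 lower among the upstream genes. Tnip1 was also called higher among the other regulators. Of the 28 measured targets 18 were then called higher, compared with 14 on all arrays, and 2 lower, with Ltb added. In that fit 1188 of all 11047 probes were called higher and 1327 lower, compared with 876 and 895 on all arrays.

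**Figure D3:**
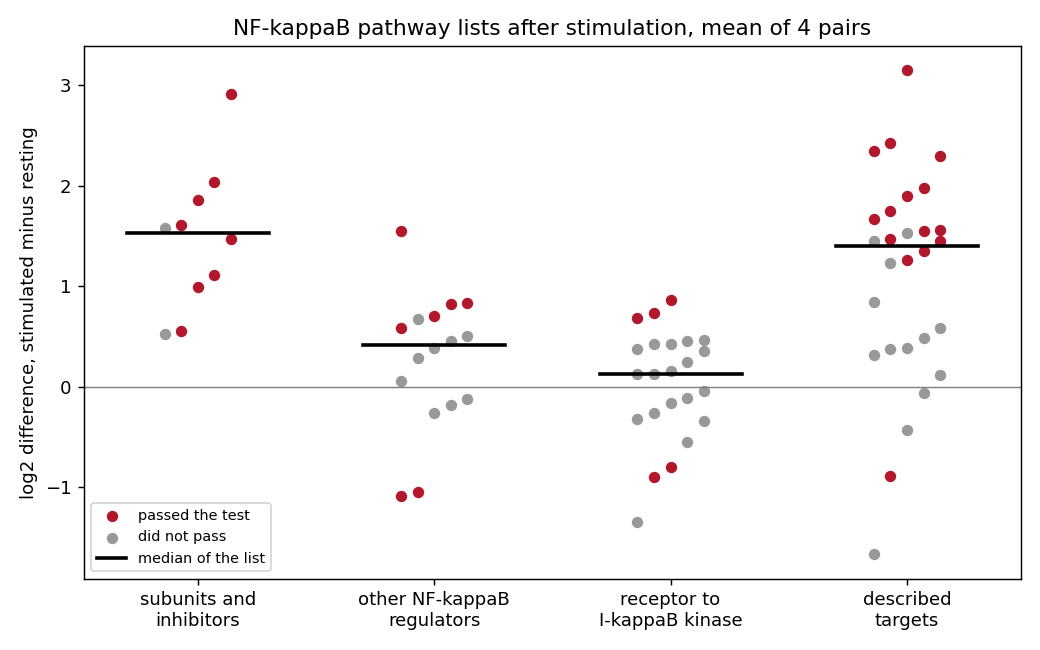
Stimulated minus resting log2 differences are plotted with a point for each measured gene, for the 10 subunit and inhibitor genes and 3 other lists of the pathway. The medians are 1.53, 0.42, 0.13 and 1.40 log2 for the subunit and inhibitor genes, other regulators, upstream genes and targets. The lists were chosen with earlier results of these data known.

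The sorted populations differed in 4 of the 10 genes, all higher in CD25High cells. These were Nfkbiz, Nfkbia, Nfkb2 and Nfkb1, 4 of 11 probes against 5.4% of all probes called higher, and none was lower, against 2.89%. In 9 of the 11 probes the CD25High array was above the CD45High array in all 4 pairs, compared with 16.7% of all probes. Nfkbiz was higher by 0.747 and 0.794 in the wild-type and knockout resting pairs and by 1.22 and 1.33 in the stimulated pairs, a mean of 1.02 log2 ± 0.15 (SE, n = 4 pairs; limma, adjusted p = 0.0134). Nfkbia was higher by 0.83 log2 (adjusted p = 0.0263), Nfkb2 by 0.77 (adjusted p = 0.0194) and Nfkb1 by 0.59 (adjusted p = 0.0400), from the same limma fit. The pair differences of Nfkb2 ran from 0.541 to 1.00 and those of Nfkb1 from 0.431 to 0.832.

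Rel was higher in CD25High cells by 0.509 and 0.381 at rest and by 1.93 and 1.73 after stimulation, which gave 1.14 log2 ± 0.30 (SE, n = 4 pairs; limma, adjusted p = 0.0704). Tnfaip3 and the brighter Nfkbie probe, at 0.59 and 0.66 log2, had adjusted p = 0.0542 and 0.0532. With the outlying array left out, Relb and Tnfaip3 were also called, making 6 of 11 probes against 6.77%. Without the knockout resting or the wild-type stimulated pair no probe of the 10 genes was called, and without the wild-type resting pair only that of Nfkbiz was. The B cell and myeloid marker sums given above were also higher in the CD25High arrays, and their part in these differences was not tested.

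In the same comparison 11 of 28 measured NF-kappaB targets were called higher in CD25High cells and none lower, against 5.4% and 2.89% of all probes. They were led by Il2ra, the gene of CD25 itself and thus of the sort (3.79 log2), Cd83 (3.16) and the tumour necrosis factor receptors Tnfrsf4 (2.78) and Tnfrsf9 (2.47). Of the other regulators only Bcl3, an atypical IkappaB protein that binds p50 and p52, and Rnf11 were called, by 0.97 and 0.64 log2. Of the upstream genes only Tab1 was, at -0.62 log2.

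The genotype comparison asked which genes changed with loss of microRNA-21. Over all 4 pairs 0 of the 11 probes and 0 of the 11047 tested were called (0%), with a lowest adjusted p of 0.493. At an unadjusted p under 0.05, 1 of the 11 probes passed, compared with 9.8% of all probes. That was Nfkbia, at -0.64 log2 ± 0.24 (SE, n = 4 pairs; limma, adjusted p = 0.493). The dimmer Nfkbie probe, with a mean of -0.66 log2, and Rela, with -0.13 log2, were below 0 in all 4 pairs, 2 of 11 probes compared with 10.1% of all probes.

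The values behind this mean separated by stimulation state. At rest Tnfaip3 was lower in the knockout array by 1.68 in CD25High and by 1.53 in CD45High cells, Nfkbia by 1.33 and 0.941, and Nfkbiz by 0.562 and 0.609. After stimulation the knockout arrays were 0.167 and 0.733 above wild type for Tnfaip3, 0.433 below and 0.136 above for Nfkbia, and 0.0847 above and 0.0200 below for Nfkbiz. The lower resting levels of these inhibitors were thus seen in both populations, and none of the 3 was lower in both after stimulation.

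Tested at rest over 2 pairs, Tnfaip3 differed by -1.60 log2 ± 0.20 (SE), Nfkbia by -1.14 ± 0.21 and Nfkbiz by -0.59 ± 0.15, each with adjusted p = 1.00 in limma. No probe of the array was called in this comparison (0%), and 3 of the 11 probes had an unadjusted p under 0.05, compared with 2.09% of all probes. Both resting knockout arrays lay below both wild-type arrays for Tnfaip3 and Nfkbia, 2 of the 11 probes, compared with 13.9% of all probes. The 6 measured B cell markers were all above 0 in the same comparison, with a median of 0.19 log2 and none called, and their part in these values was not tested. The error of these tests includes the spread of the stimulated arrays, among them the one that stood apart. Without that array Tnfaip3 (-1.60 ± 0.13 log2, SE; limma, adjusted p = 0.00445) and Nfkbia (-1.14 ± 0.14; adjusted p = 0.0258) were called lower at rest. These were 2 of 11 probes against 0.335% of all probes called lower, and this fit estimated its error from 1 residual degree of freedom per probe and limma's prior.

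**Figure D4:**
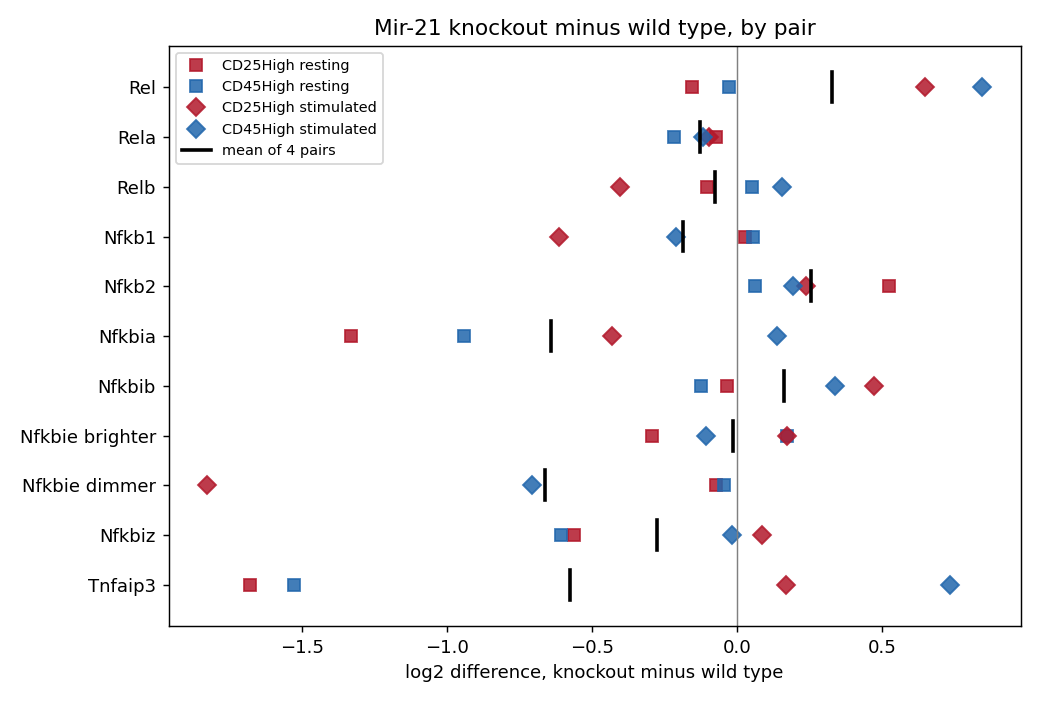
Knockout minus wild-type log2 differences are plotted for each of the 11 probes, with a point for each population at rest and after stimulation and a bar for the mean of the 4. Tnfaip3 lies at -1.68 and -1.53 at rest and at 0.167 and 0.733 after stimulation.

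The 5 subunit genes had smaller differences than Tnfaip3 and Nfkbia at rest. Rel differed by -0.155 and -0.0280 in the CD25High and CD45High resting pairs, Relb by -0.106 and 0.0511, and Nfkb1 by 0.0255 and 0.0543. Nfkb2 had the largest difference of a subunit in a resting pair, at 0.522 in CD25High and 0.0615 in CD45High cells. After stimulation Rel was higher in the knockout by 0.647 and 0.842 and Nfkb1 lower by 0.614 and 0.213. None of the 11 probes was called after stimulation (0% of all probes), and 3 of 11 had an unadjusted p under 0.05, compared with 14.3%. These were Rel (0.74 log2), Nfkbib (0.40 log2) and the dimmer Nfkbie probe (-1.27 log2), each with adjusted p = 0.349 in limma. In the same comparison the myeloid markers S100a8 and Lyz2 were at -2.05 and -2.37 log2 and Fcer1g at -0.25, the 3 of the 10 markers that passed the filter, none of them called. The summed myeloid level after stimulation was 677 and 335 units in the wild-type and 430 and 203 in the knockout CD25High and CD45High arrays, and its part in these values was not tested.

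The genotype difference changed most between the states for Tnfaip3, by 2.05 log2 ± 0.28 (SE; limma, adjusted p = 0.863), which is by arithmetic also the amount by which its response to stimulation was larger in the knockout. The same quantity was -1.21 log2 for the dimmer Nfkbie probe, 0.99 for Nfkbia, 0.84 for Rel and 0.62 for Nfkbiz. None of the 11 probes was called (0% of all probes), and these 4 and Tnfaip3 had an unadjusted p under 0.05, 5 of 11 compared with 3.66%. Nfkbib at 0.48 and Nfkb1 at -0.45 log2 did not reach it. Without the array that stood apart Tnfaip3 alone of the 10 genes was called, at 2.34 log2 ± 0.23 (SE; limma, adjusted p = 0.0214), against 0.0453% of all probes. The stimulated side of that value is the CD45High pair alone, with no replicate, and the fit assumes that it varies as the resting pairs do.

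Among the other genes of the pathway none was called at rest between the genotypes. The medians were -0.09 log2 for the 10 subunit and inhibitor genes, 0.01 for the other regulators, 0.02 for the upstream genes, -0.14 for the targets and 0.01 over all probes. The target with the largest value was Gadd45b, at -1.87 log2, followed by Ier3, an early response gene that limits cell death, at -1.17. Gadd45b stood at 9.56, 7.37, 8.39 and 6.84 at rest and at 11.25, 10.79, 9.31 and 9.99 after stimulation, in the order wild-type CD25High, knockout CD25High, wild-type CD45High and knockout CD45High. As for Tnfaip3, both resting knockout arrays were the lowest of the 8. Without the array that stood apart Gadd45b, Ier3, Junb, Tnf and Cd69 were called lower at rest, 5 of the 28 measured targets against 0.335% of all probes. No gene of the other regulators or the upstream list was called. The error of this fit came from 1 residual degree of freedom per probe and limma's prior.

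Across all 8 arrays the genes whose values tracked those of Tnfaip3 most closely were Wsb1 (Pearson r = 0.980), Gadd45b (0.979), Ier3 (0.966) and Tsn (0.959). For Nfkbia they were Hspa2 (0.972), Gadd45b (0.970), Ier3 (0.950) and Rrad (0.942). Gadd45b and Ier3 were thus among the 4 nearest for both inhibitors. For Rel the nearest were Tg (0.995), Bcl2a1c (0.994), Sftpd (0.993) and Sh3d21 (0.992). These coefficients describe 8 arrays that share 2 genotypes, 2 populations and 2 states, and a few arrays with high or low values set them.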

How the data were processed

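Per the file headers, the deposited table of non-normalized values lists, by probe and array, the average bead intensity (linear scale), the standard error of that signal, a count of beads and a detection p-value. The deposited value table holds log2 values, with limma named in the submitters' processing notes and no version given. Set against the values computed here it differed by at most 0.0626 log2 and held 14533 probes. It served as an alternative.

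Intensities were background corrected, quantile normalized and put on the log2 scale with neqc (offset 16) in limma 3.58.1 under R 4.3.3. Tests covered probes that reached a detection p under 0.01 in 2 or more of the 8 arrays, with each pair of otherwise equal arrays as a block, lmFit and eBayes, two-sided tests and Benjamini-Hochberg adjustment over all 11047 probes. The pairs come from the labels' factorial layout, not from shared animals, and pair differences correlated across probes at 0.330 to 0.720 for stimulation, 0.387 to 0.813 for population and 0.0255 to 0.419 for genotype. A gene with several probes was represented in lists by its brightest. All probes of the 10 genes are reported, other lists name up to 4 called genes per direction, or the largest values where none was called, with further ones where a count was 5 or fewer, and the 4 most similar genes are named by Pearson's r. The 10 genes and the lists were chosen with earlier results of these data known. Gene symbols matched current RefSeq names for 20733 probes and older ones for 3872. The code was tested on simulated data. Bead standard errors of the 11 probes were 2.05 to 6.76% of the intensity, which covers technical error within an array only, and the 1 array per combination limits precision. The values of 1 further gene of the upstream list are not reported here.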

Additional observations from a re-analysis of the deposited data

Results flagged for a closer look

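Of the population differences, Rela in the wild-type resting pair was 0.0903 log2, against 0.235, 0.237 and 0.258 in the other 3 pairs. Its gap to the nearest was 0.867 of the range, above Dixon's critical value for 4 values, and chance alone gives about 1 in 20 such groups.

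The genotype difference changed sign between rest and stimulation in both populations for Tnfaip3, Rel, Nfkbib and Nfkb1. The difference at rest minus that after stimulation was -2.05 log2 for Tnfaip3, -0.836 for Rel, -0.484 for Nfkbib and 0.453 for Nfkb1. In the limma test of this difference all 4 had adjusted p = 0.863. For Relb the genotype difference was below 0 in both CD25High pairs (-0.106 and -0.405) and above 0 in both CD45High pairs (0.0511 and 0.153), a difference of -0.358 log2 between the populations that was not tested.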

How the results depend on the processing

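Counts give all probes called, with those of the 10 genes after them. Under no filter on dim probes the counts were 1162 for stimulation, 558 for population, 901 for stimulation in CD25High and 0 for stimulation in CD45High cells (0 of the 10 genes), against 1771, 916, 1561 and 104 as reported. Without the knockout CD25High stimulated array they were 1 for genotype, 2508 and 2451 (10) for stimulation in CD25High and CD45High cells, 204 for the difference between these, 41 (2) for genotype at rest, 1 after stimulation and 6 (1) for the difference between the states. In that fit, stimulation in CD25High cells and genotype after stimulation rest on 1 pair, whose lone arrays are assumed to vary like the other groups, as with any pair left out of a comparison over 2. Stimulation in CD45High cells gave 321 without background correction, 324 with an offset of 50, 11 (1) with cyclic loess, 322 for probes detected on all arrays, 503 with a trended, robust prior and 301 with the mean over a gene's probes. Leaving out 1 pair at a time gave ranges of 0 to 2515 (0 to 9) for stimulation, 231 to 1335 (0 to 6) for population, 0 to 1 for genotype, 169 to 3969 (3 to 10) and 0 to 2451 (0 to 10) for stimulation in CD25High and CD45High cells, 0 to 2011 (0 to 2) for their difference, 0 to 41 (0 to 2) for genotype at rest, 0 to 3700 (0 to 3) after stimulation and 0 to 2003 (0 to 2) for the difference between states. The genotype value of Relb, -0.08 as reported, was 0.0326 without the knockout CD25High stimulated array and -0.153 to 0.0326 with 1 pair left out, and that of the brighter Nfkbie probe, -0.02 as reported, ran from -0.0783 to 0.0773. Of the other values of the 10 genes, 693 kept their direction and side of the threshold, 57 passed it newly and 54 lost it. The causes were not tested. The beadchip block was not run because the files name no chips. The 8 arrays, and for the dimmer Nfkbie probe a signal near background, limit what can be told apart.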
